A study of Mus musculus with 4 samples.

Results

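T and natural killer (NK) cells of the mouse pituitary made up 652 of the 29899 cells kept from 44108 cell barcodes in 4 single-cell RNA libraries. Glands came from p25OE mice, which overexpress p25, at 14 weeks, from WT mice at 14 weeks, from p25OE mice at 40 weeks and from WT mice at 40 weeks, with 1 library per group. Cdk5r1 encodes p35, which activates the kinase Cdk5, and p25 is its truncated form. The labels give the strain of all 4 groups as "C57BL/6- B6;CBA-BiTg", and they name neither the promoter of the transgene nor how many mice were pooled. Glands were digested with papain and red blood cells were lysed before droplet capture, per the labels' protocols. RNA molecules were counted with unique molecular identifiers (UMIs), tags that mark each captured molecule. Members were chosen by their own marker counts, which are therefore no finding here. A cell was taken when it had at least 500 detected genes, at most 20% mitochondrial UMIs, at least 1 UMI of at least 2 of 6 marker genes (Cd3e, Cd3d, Cd3g, Trbc2, Nkg7 and Il7r), and no UMI of the macrophage gene C1qa or the B cell gene Cd79a. The rule found 128 cells in p25OE and 314 in WT glands at 14 weeks, and 30 cells in p25OE and 180 in WT glands at 40 weeks.

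T cells recognise antigen through a receptor built from alpha and beta or from gamma and delta chains, and the CD3 proteins carry its signal inward. CD4 T cells mainly help other immune cells and CD8 T cells mainly kill infected or altered cells, while NK cells kill without a T cell receptor. Tissue-resident T cells stay in an organ through adhesion molecules such as the integrins that Itga1 and Itgae encode. Gamma-delta T cells of the type 17 kind secrete interleukin 17 and are known from barrier tissues and, in mice, from the meninges. Interferons act on almost every cell type and raise a shared set of antiviral genes.

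With 1 library per group there was no replicate spread, so no p-value was computed, and cells of a library are not replicates. Every interval below is an exact 95% interval that covers counting error only. The kept cells had median UMIs of 6340 (p25OE) and 10778 (WT) at 14 weeks, and of 6626 (p25OE) and 4940 (WT) at 40 weeks. The T and NK cells had medians of 3763 (p25OE) and 2870.5 (WT) at 14 weeks, and of 9142.5 (p25OE) and 2466.5 (WT) at 40 weeks. The barcode sets differ between the ages, so age and the way the libraries were made cannot be told apart. The 14-week libraries shared 32 barcodes and the 40-week libraries 135, but no T or NK cell had a barcode that another library's T or NK cells held. Cdk5r1 was found in 2 of 128 (p25OE) and 7 of 314 (WT) T and NK cells at 14 weeks, and in 3 of 30 (p25OE) and 5 of 180 (WT) at 40 weeks, so in these cells it gave no check of the genotype labels.

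At 14 weeks the pan-leukocyte gene Ptprc, which the rule did not use, was found in 112 (p25OE) and 277 (WT) cells, or 87.5% and 88.2%. In the endocrine cells, which should lack it, the share was 0.715% (p25OE) and 1.05% (WT). Coro1a, an actin regulator of leukocytes, was found in 90.6% (p25OE) and 89.2% (WT) of T and NK cells, and Ms4a4b, a membrane protein of T cells, in 83.6% (p25OE) and 87.9% (WT). Both 14-week populations thus carried lymphocyte genes in nearly all cells. The 40-week libraries stood apart. Ptprc was found in only 9 of 30 cells in p25OE glands and in 65 of 180 cells in WT glands, and Ms4a4b in 23.3% (p25OE) and 47.8% (WT). Ptprc was also found in fewer macrophages at 40 weeks, 33.2% (p25OE) and 11.0% (WT), than at 14 weeks, 41.0% (p25OE) and 55.9% (WT). In the p25OE library at 40 weeks, 20 of the 30 cells had UMIs of at least 4 of 6 pituitary endocrine genes (among them Chga, Chgb, Scg2, Scg3 and Pitx1), and these cells held 89.0% of the members' UMIs. These 30 cells therefore go against the name T and NK cells, and only counts and shares are given for them.

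Cells that met this endocrine rule numbered 9 (p25OE) and 25 (WT) at 14 weeks and 24 in WT glands at 40 weeks, where they held 16.2%, 40.4% and 26.8% of the T and NK UMIs. Whether these droplets held an endocrine and an immune cell together was not tested, and no doublet caller was run. Values without these cells are given beside the leading results. The UMIs of 7 hormone genes took a median of 2.15% (p25OE) and 2.09% (WT) of a cell's UMIs at 14 weeks, and 4.64% (p25OE) and 13.0% (WT) at 40 weeks. Cells at the edge of the rule, with exactly 2 markers, numbered 26 (p25OE) and 30 (WT) at 14 weeks and 19 (p25OE) and 39 (WT) at 40 weeks. Ptprc was found in 73.1% (p25OE) and 63.3% (WT) of those at 14 weeks, but in only 10.5% (p25OE) and 23.1% (WT) at 40 weeks. Cells just outside, with 1 marker, numbered 358 (p25OE) and 239 (WT) at 14 weeks and 1839 (p25OE) and 291 (WT) at 40 weeks. Ptprc was found in 6.15% (p25OE) and 11.3% (WT) of them at 14 weeks and in 1.09% (p25OE) and 3.78% (WT) at 40 weeks.

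T and NK cells were a smaller share of the gland in p25OE than in WT libraries at both ages. At 14 weeks they were 1.67% of kept cells in p25OE glands (1.39 to 1.98) and 4.77% in WT glands (4.27 to 5.32), a 2.86-fold lower share (2.32 to 3.54). Without the endocrine-rule cells the shares were 1.55% (p25OE) and 4.39% (WT), 2.83-fold lower. Of the immune cells alone (T and NK cells, macrophages, B cells and neutrophils), T and NK cells were 10.7% in p25OE and 27.4% in WT glands at 14 weeks, 2.56-fold lower (2.08 to 3.17). Without the endocrine-rule cells this share was 2.57-fold lower, a ratio of 0.389 (0.312 to 0.483). At 14 weeks macrophages were 13.0% of kept cells in p25OE and 11.3% in WT glands, a ratio of 1.14. At 40 weeks T and NK cells were 0.388% in p25OE (0.262 to 0.554) and 2.27% in WT glands (1.95 to 2.62), 5.85-fold lower (3.96 to 8.92). Without the endocrine-rule cells these shares were 0.129% (p25OE) and 1.97% (WT), 15.2-fold lower (8.05 to 32.3). Other immune cells were lower in p25OE glands at 40 weeks too, with macrophages at 3.7% against 19.6% in WT glands, B cells at 0.0129% (1 cell) against 0.669% in WT glands, and neutrophils at 0.0388% (3 cells) against 2.33% in WT glands. These classes rest on few UMIs, neutrophils on at least 1 UMI each of S100a8 and S100a9. S100a8 was also found in endocrine cells and macrophages of the WT library at 40 weeks, as given below. Whether some cells counted as neutrophils there were other cells with free RNA was not tested. Of the immune cells alone, T and NK cells were 9.38% in p25OE and 9.12% in WT glands at 40 weeks, a ratio of 1.03 (0.674 to 1.52), and the ratio was 0.416 (0.196 to 0.787) without the endocrine-rule cells. Between the WT libraries, the T and NK share was 2.10-fold lower at 40 than at 14 weeks (1.74 to 2.54). This difference was smaller without the exclusion by C1qa and Cd79a, as given in the last section, so it depends in part on the rule. Whether fewer T and NK cells were in a gland or fewer survived digestion and capture cannot be told apart.

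**Figure D1:**
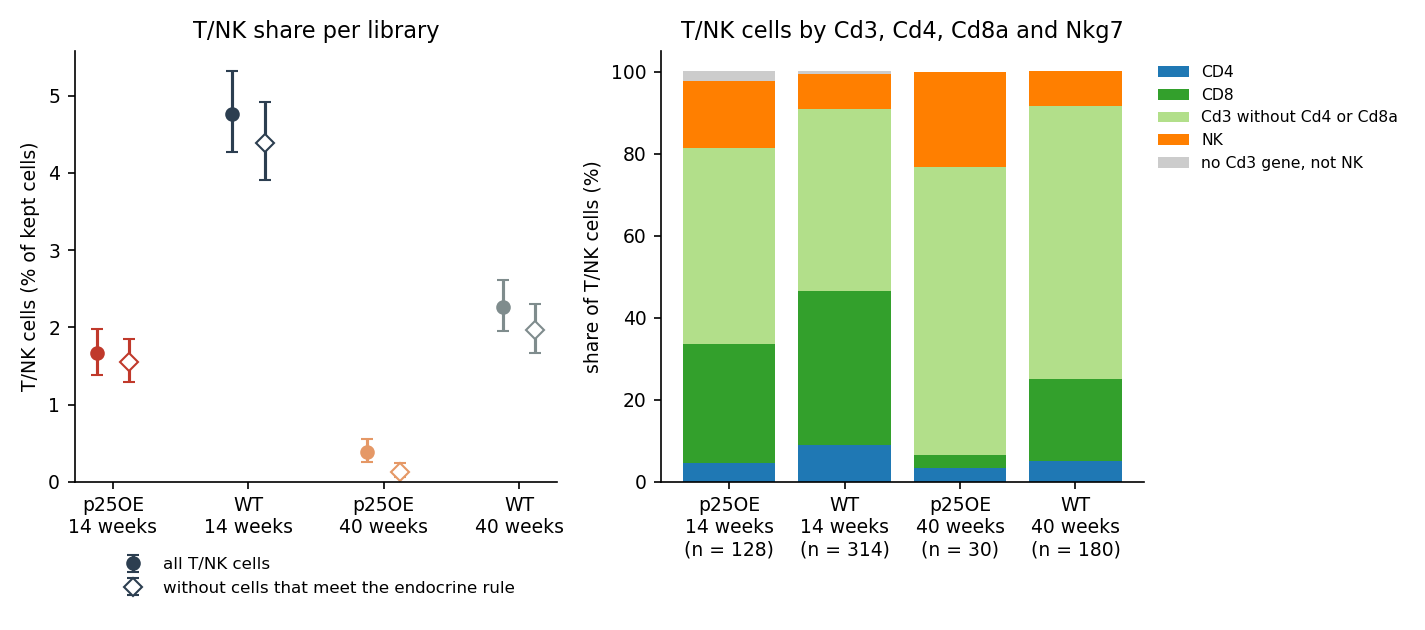
Left, T and NK cells as a percent of kept cells (y axis) in each of the 4 libraries, p25OE left of WT at each age, for all T and NK cells (filled circles) and without the endocrine-rule cells (open diamonds); bars are exact 95% binomial intervals. Right, the percent of T and NK cells (y axis) in each subset. The p25OE values, 1.67% at 14 weeks and 0.388% at 40 weeks, lie below the WT values of the same age, 4.77% and 2.27%.

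The subsets were split by the Cd3 genes, Cd4 and Cd8a. In p25OE glands at 14 weeks 6 cells were CD4, 37 CD8 and 21 NK (no Cd3 gene, with the granule gene Nkg7), against 28 CD4, 118 CD8 and 27 NK cells in WT glands. Another 61 cells (p25OE) and 139 cells (WT) had a Cd3 gene without Cd4 or Cd8a, and 0 cells had both coreceptors. As a share of all kept cells, CD4 cells were 5.44-fold lower in p25OE than in WT glands (2.21 to 16.1) and CD8 cells 3.72-fold lower (2.55 to 5.53). NK cells were 1.5-fold lower, with an interval of 0.816 to 2.79 that spans no difference. NK cells were thus a larger part of the T and NK cells in p25OE glands, 16.4% against 8.6% in WT glands, a ratio of 1.91 (1.03 to 3.5) and of 1.77 (0.928 to 3.33) without the endocrine-rule cells. With each cell thinned to 1000 UMIs it was 1.72 (0.89 to 3.26), and these last 2 intervals span no difference. By the rule a cell without a Cd3 gene needed at least 2 of Nkg7, Trbc2 and Il7r. NK cells in which only Nkg7 was found were therefore not counted. CD8 cells were 28.9% (p25OE) and 37.6% (WT) of T and NK cells, a 1.3-fold lower share whose interval, 0.892 to 1.94, spans no difference. In WT glands at 40 weeks 9 cells were CD4, 36 CD8, 15 NK and 120 had a Cd3 gene without either coreceptor. As a share of T and NK cells, CD8 cells were 1.88-fold lower at 40 than at 14 weeks in WT glands (1.28 to 2.81). Without the type 17 gamma-delta cells described below, none of which was CD8, they were 36 of 133 cells at 40 weeks and 118 of 309 at 14 weeks.

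Genes outside the split mostly followed it. Cd8b1, the second chain of the CD8 coreceptor, was found in 27 of 37 (p25OE, 14 weeks), 75 of 118 (WT, 14 weeks) and 29 of 36 (WT, 40 weeks) CD8 cells and in 0 CD4 cells of these libraries. In the same order it was also found in 6 of 61, 17 of 139 and 5 of 120 cells with a Cd3 gene alone. Among NK cells it was found in 0 of 21, 0 of 27 and 2 of 15. Whether those 2 were CD8 cells without a counted Cd3 gene was not tested. Ncr1, which encodes the activating receptor NKp46, was found in 16 of 21 (p25OE, 14 weeks), 17 of 27 (WT, 14 weeks) and 6 of 15 (WT, 40 weeks) NK cells. NK cells had higher levels than CD8 cells of Tyrobp, a signalling adaptor of NK receptors, in all 3 libraries, with log2 ratios of 4.17 (p25OE, 14 weeks), 5.76 (WT, 14 weeks) and 3.24 (WT, 40 weeks). They had lower levels of Ly6a, a surface protein of activated T cells, with log2 ratios of -2.86, -2.69 and -3.32 in the same order, and of Ms4a6b, a T cell membrane protein, with -2.33, -2.24 and -1.67. CD8 cells had higher levels than CD4 cells of Ccl5, a chemokine stored by memory CD8 cells, with log2 ratios of 5.08, 1.72 and 3.17. Cd28, the costimulatory receptor, was on the lower side, with log2 ratios of -1.25, -1.25 and -0.57. Foxp3, the regulator of regulatory T cells, was found in 0 of 128 (p25OE) and 10 of 314 (WT) T and NK cells at 14 weeks and in 0 of 30 (p25OE) and 1 of 180 (WT) at 40 weeks.

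Between p25OE and WT glands at 14 weeks, 557 of 6942 genes (8.02%) were at least 1.5-fold higher and 1271 (18.3%) at least 1.5-fold lower in p25OE T and NK cells. Genes counted here had at least 30 UMIs in both libraries together, and levels are scaled CPM, which are UMIs scaled between libraries by the median ratio of well-counted genes. Without the endocrine-rule cells 451 (8.41%) were higher and 669 (12.5%) lower of 5363 genes. Interferon-stimulated genes stood on the higher side. Of 28 listed genes 27 were measured, 21 were at least 1.5-fold higher, 0 were lower, and the median log2 ratio was 0.84, against -0.08 for all genes. Without the endocrine-rule cells 13 were higher and 1, Ly6a, was lower, with a median of 0.57.

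The antiviral enzyme gene Rsad2 (viperin) had 50 UMIs in p25OE and 11 in WT T and NK cells, or 84.2 scaled CPM (p25OE) and 7.93 (WT), 10.6-fold higher (5.46 to 22.6) and 14.9-fold without the endocrine-rule cells. It was found in 21 of 128 (p25OE) and 9 of 314 (WT) cells. Ifit1, whose protein binds foreign RNA, had 83 UMIs (p25OE) and 33 UMIs (WT), 140 scaled CPM (p25OE) and 23.8 (WT), 5.88-fold higher (3.88 to 9.08). The signal was thus spread over cells and was not that of a single cell. Isg15, a ubiquitin-like protein, had 319 UMIs (p25OE) and 150 UMIs (WT), or 537 (p25OE) and 108 (WT) scaled CPM, 4.97-fold higher (4.08 to 6.07) and 4.06-fold without the endocrine-rule cells. Isg15 was found in 41.4% of p25OE and 19.4% of WT cells, and in 25.6% (p25OE) and 10.9% (WT) when each cell was thinned to 1000 UMIs. The difference was therefore present at equal depth per cell. Mx1, Slfn5 and Cxcl10 are not on the list of 28 but were among the 10 highest ratios of the genes that could be ranked, and they are interferon-induced too. Mx1, an antiviral GTPase, was 5.75-fold higher (3.59 to 9.45), Slfn5, a regulator of T cell quiescence, 5.88-fold (3.88 to 9.08), and Irf7, the listed transcription factor that amplifies the interferon response, 4.01-fold (2.89 to 5.61). Bst2, or tetherin, was found in 62.5% (p25OE) and 33.1% (WT) of cells. Cxcl10, a chemokine that attracts T cells, was 7.11-fold higher (4.38 to 11.9), but 26 of 70 UMIs (p25OE) and 19 of 23 UMIs (WT) were in 1 cell of each library. Ifi27l2a, with 605 UMIs (p25OE) and 788 UMIs (WT), was 1.79-fold higher. Ly6a went the other way, with 200 UMIs (p25OE) and 600 UMIs (WT), 1.28-fold lower and 1.54-fold lower without the endocrine-rule cells.

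**Figure D2:**
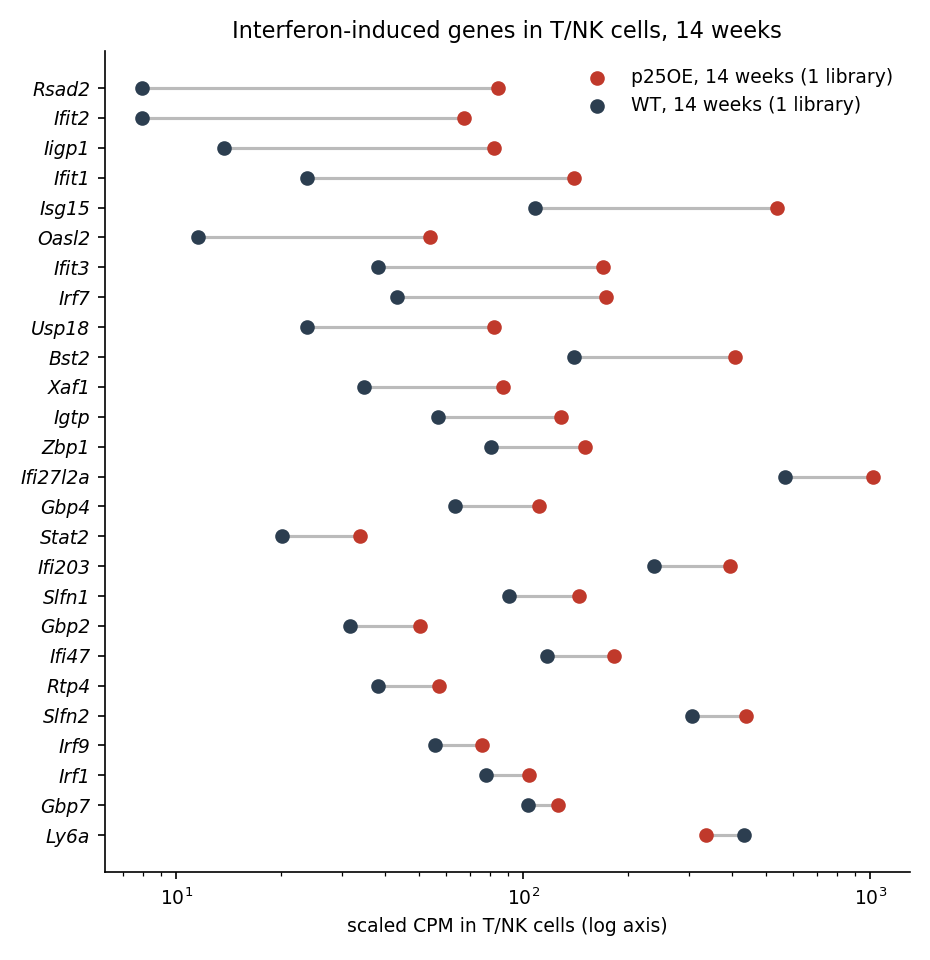
Scaled CPM (x axis, log scale) of 26 measured interferon-stimulated genes (y axis) in the T and NK cells of p25OE (red) and WT (dark) glands at 14 weeks, 1 library each with no error bar. The p25OE point lies right of the WT point for every gene drawn except Ly6a, which is at 337 (p25OE) and 432 (WT).

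By subset, Isg15 was found in 22 of 37 (p25OE) and 21 of 118 (WT) CD8 cells, in 6 of 21 (p25OE) and 3 of 27 (WT) NK cells, in 25 of 61 (p25OE) and 29 of 139 (WT) cells with a Cd3 gene alone, and in 0 of 6 (p25OE) and 8 of 28 (WT) CD4 cells. In CD8 cells, 16 of 21 measured interferon genes were at least 1.5-fold higher, with a median log2 ratio of 1.1, where 9.65% of the 2838 genes measured in these cells were higher and 22.9% lower. In NK cells only 2 of the listed genes were measured, with a median of 0.17, where 14.5% of 842 genes were higher and 13.2% lower. The higher levels were not particular to T and NK cells. In macrophages 15 of the 28 genes were higher with a median log2 ratio of 0.7 (all genes: 8.83% higher, 6.94% lower), and in endocrine cells 22 of 27 with a median of 0.97 (16.0% higher, 7.82% lower). Rsad2 was 3.02-fold higher in macrophages and 2.5-fold in endocrine cells, and Isg15 was 3.24-fold and 3.47-fold higher in these classes. Ifi27l2a was 6.85-fold higher in endocrine cells. Whether the ratio of any gene differed between the classes was not tested.

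**Figure D3:**
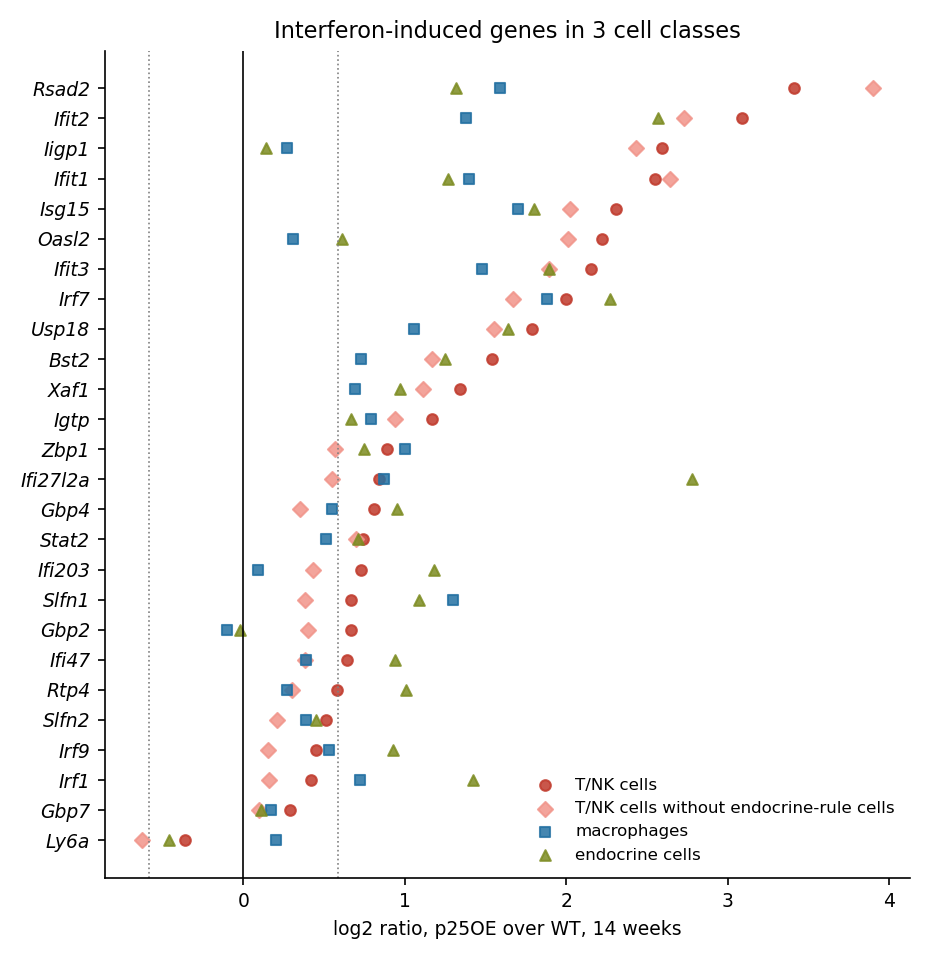
Log2 ratio of p25OE over WT at 14 weeks (x axis) for the same 26 interferon-stimulated genes (y axis) in T and NK cells, in T and NK cells without the endocrine-rule cells, in macrophages and in endocrine cells; dotted lines mark 1.5-fold. Most points of every class lie right of 0.

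Interferon-stimulated genes carry binding sites for interferon-activated transcription factors, such as the IRF family, near their start sites. The promoter stretches of 4 listed genes that were higher in p25OE cells are shown because they carry the letters GAAANNGAAA, a core of such sites, searched on both strands (TTTCNNTTTC on the other strand). Each is the 170 bases just before the start site on the gene's own strand, from RefSeq on GRCm38.p6, with motif matches in capitals. The stretches are chr19:34640719-34640888 (plus strand) for Ifit1, chr4:156200819-156200988 (minus strand) for Isg15, chr19:34583359-34583528 (plus strand) for Ifit3 and chr12:26456453-26456622 (minus strand) for Rsad2.
Ifit1: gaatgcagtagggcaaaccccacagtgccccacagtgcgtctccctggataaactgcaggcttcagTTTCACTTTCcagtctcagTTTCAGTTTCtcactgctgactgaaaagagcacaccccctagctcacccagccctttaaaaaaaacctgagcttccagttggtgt
Isg15: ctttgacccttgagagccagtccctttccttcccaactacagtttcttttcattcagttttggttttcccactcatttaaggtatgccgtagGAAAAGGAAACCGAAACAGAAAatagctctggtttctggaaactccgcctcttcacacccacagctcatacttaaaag
Ifit3: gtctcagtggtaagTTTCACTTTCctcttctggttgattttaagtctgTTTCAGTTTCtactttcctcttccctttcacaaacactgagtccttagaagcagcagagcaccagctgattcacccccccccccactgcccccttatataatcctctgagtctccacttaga
Rsad2: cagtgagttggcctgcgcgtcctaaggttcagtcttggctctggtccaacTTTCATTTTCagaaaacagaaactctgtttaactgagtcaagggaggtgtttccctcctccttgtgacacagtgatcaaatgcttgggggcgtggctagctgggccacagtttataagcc
Ifit1 and Ifit3 held 2 matches each, Isg15 held 3 that overlap one another, and Rsad2 held 1. Over the 250 bases before the start, the motif was present in 936 of 27025 genes (3.46%) and in 10 of the 19 listed interferon genes that matched the table by symbol (52.6%). Of those at least 1.5-fold higher in p25OE T and NK cells, 9 of 15 (60.0%) held it. A match describes the letters and does not show that a factor was bound.

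NK receptor and granule genes were the other group on the higher side in p25OE glands. Of 21 measured NK genes 9 were at least 1.5-fold higher and 0 lower (median log2 ratio 0.53), and without the endocrine-rule cells 8 were higher and 3 lower of 20 (median 0.2). Of all genes 8.02% were higher and 18.3% lower, and 8.41% and 12.5% without those cells. Klra7, an inhibitory receptor of the Ly49 family, had 71 UMIs (p25OE) and 27 UMIs (WT), 120 (p25OE) and 19.5 (WT) scaled CPM, 6.14-fold higher (3.89 to 9.96), in 17 of 128 (p25OE) and 11 of 314 (WT) cells. Klra1, of the same family, was 8.01-fold higher (4.34 to 15.7), in 12 (p25OE) and 6 (WT) cells. Ly49 genes are near-identical copies, and reads can be shared among them. Gzma, which encodes granzyme A, had 550 UMIs (p25OE) and 433 UMIs (WT), 2.97-fold higher, and 2.0-fold without the endocrine-rule cells. The p25OE UMIs were in 6 cells with a Cd3 gene alone (304), 5 NK cells (190) and 4 CD8 cells (56). Those of WT were in 8, 4 and 14 such cells (70, 99 and 232) and in 2 CD4 cells (32). Ncr1 was 2.93-fold higher and Ifng, the gene of interferon gamma, 3.01-fold (2.06 to 4.41). Gzmc, a granzyme of strongly activated lymphocytes, was 28.3-fold higher (17.3 to 49.5), yet it was found in only 7 (p25OE) and 3 (WT) cells, and 116 of its 206 UMIs in p25OE glands were in 1 cell.

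NK cells were 16.4% (p25OE) and 8.6% (WT) of the population, and the part of its makeup in these levels was not tested. In p25OE glands the NK subset held 2 of 48 UMIs of Klra1, 19 of 71 of Klra7 and 200 of 206 of Gzmc. Of Ncr1 it held 45 UMIs, with 29 in cells with a Cd3 gene alone. Within the NK subset, 1 of 16 measured NK genes was higher and 9 were lower, with a median log2 ratio of -0.63, over 21 (p25OE) and 27 (WT) cells. Of all 842 genes measured in this subset 14.5% were higher and 13.2% lower. Gzmk, a granzyme typical of memory CD8 cells, had 28 UMIs (p25OE) and 112 UMIs (WT), 1.71-fold lower.

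Genes of T cell identity and of residence in tissue were mixed, with Themis, Itga1 and Itgae on the lower side in p25OE glands. Of 25 T cell genes 2 were higher and 4 lower (median log2 ratio -0.13), and 2 were higher and 8 lower without the endocrine-rule cells (median -0.39). The first counts are near the shares of all genes, 8.02% higher and 18.3% lower, and so are no result about this list. Without the endocrine-rule cells 8.41% of all genes were higher and 12.5% lower. Themis, a signalling protein of T cell selection, had 22 UMIs (p25OE) and 113 UMIs (WT), 37 (p25OE) and 81.4 (WT) scaled CPM, 2.2-fold lower (1.38 to 3.65). Itga1, the collagen-binding integrin CD49a, had 49 UMIs (p25OE) and 279 UMIs (WT), or 82.5 (p25OE) and 201 (WT) scaled CPM, 2.44-fold lower (1.79 to 3.37) and 2.9-fold without the endocrine-rule cells. It was found in 30 of 128 (p25OE) and 159 of 314 (WT) cells. The share was also lower within CD8 cells, 13 of 37 (p25OE) and 73 of 118 (WT), and in NK cells, 5 of 21 (p25OE) and 20 of 27 (WT). Itgae, the integrin CD103 that binds E-cadherin, had 12 UMIs (p25OE) and 66 UMIs (WT), 2.35-fold lower (1.26 to 4.79). Cxcr6, a chemokine receptor of resident T cells, had 254 UMIs (p25OE) and 776 UMIs (WT), 1.31-fold lower and 1.62-fold without the endocrine-rule cells. The residency list was mixed as a whole, with 3 higher and 4 lower of 13 (median 0.2), where 8.02% of all genes were higher and 18.3% lower.

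Tcf7, the transcription factor of naive and memory T cells, had 69 UMIs (p25OE) and 86 UMIs (WT), 1.87-fold higher. Of 13 class I antigen-presentation genes 3 were higher and 0 lower (median 0.46), where 8.02% of all genes were higher and 18.3% lower, and in CD8 cells 7 were higher (median 0.62), where 9.65% of all genes were. Of 17 immediate early and heat shock genes 5 were higher and 0 lower (median 0.45), and in macrophages 11 of 21 were higher (median 0.63), against 8.02% and 8.83% of all genes higher in these classes. Their part in the other results was not tested.

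Glucocorticoid-responsive genes, which report on the steroid that pituitary hormone release controls, were mixed, with 3 higher and 1 lower of 16 (median 0.1), where 8.02% of all genes were higher and 18.3% lower. Sgk1, a kinase induced by glucocorticoids, had 34 UMIs (p25OE) and 28 UMIs (WT), 57.2 (p25OE) and 20.2 (WT) scaled CPM, 2.84-fold higher (1.67 to 4.86). Nfkbia, the inhibitor of NF-kappaB, was 1.82-fold higher (1.54 to 2.15), with 252 UMIs (p25OE) and 324 UMIs (WT). Txnip, a regulator of glucose uptake and redox state, had 114 UMIs (p25OE) and 459 UMIs (WT), 1.72-fold lower. Fkbp5, a chaperone of the glucocorticoid receptor, was at 33.7 (p25OE) and 35.3 (WT) scaled CPM, and Tsc22d3, the glucocorticoid-induced leucine zipper, at 114 (p25OE) and 104 (WT). The genes of this list thus did not move together. Among inhibitory receptors and exhaustion markers 3 were higher and 1 lower of 8 (median 0.36), against the same shares of all genes.

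Among the genes with the lowest ratios, Glrx, a glutaredoxin, had 14 UMIs (p25OE) and 94 UMIs (WT), 2.87-fold lower, in 10 (p25OE) and 64 (WT) cells. Dicer1, the microRNA-processing nuclease, was 2.63-fold lower, with 15 UMIs (p25OE) and 92 UMIs (WT). The linker histone gene Hist1h1d was 7.28-fold lower (2.35 to 36.4), but 38 of its 51 UMIs in WT glands were in 1 cell. Gm42418, a locus that collects ribosomal RNA reads and was chosen after its value was seen, was 4.63-fold higher in p25OE T and NK cells, 4.24-fold in macrophages and 4.31-fold in endocrine cells, so the difference was shared by the classes of the library.

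Between the WT libraries, gamma-delta T cell and interleukin 17 genes led the ranked ratios of 40 over 14 weeks. In T and NK cells at 40 weeks 744 of 6761 genes (11.0%) were at least 1.5-fold higher and 2495 (36.9%) at least 1.5-fold lower than at 14 weeks, with a median log2 ratio of -0.29. Without the endocrine-rule cells 702 (13.9%) were higher and 1984 (39.3%) lower of 5054. Il17a, on chromosome 1 (bases 20730905 to 20734496, plus strand, GRCm38), encodes interleukin 17A. It had 107 UMIs in 38 cells at 40 weeks and 0 UMIs at 14 weeks, a ratio of 96.0 when the 14-week library is set to a floor of 3 UMIs. Trdc, the constant segment of the T cell receptor delta chain, had 359 UMIs at 40 weeks and 54 at 14 weeks, 696 (40 weeks) and 38.9 (14 weeks) scaled CPM, 17.9-fold higher (13.4 to 24.3), in 51 of 180 (40 weeks) and 13 of 314 (14 weeks) cells. Tcrg-C1, a constant segment of the gamma chain that is close in sequence to other gamma constant segments, was 21.5-fold higher (14.7 to 32.6). Cd163l1, the scavenger receptor SCART1 of gamma-delta T cells, had 143 UMIs (40 weeks) and 14 UMIs (14 weeks), 27.5-fold higher (15.9 to 51.5). Blk, a kinase used by interleukin 17-making gamma-delta cells, had 69 UMIs (40 weeks) and 2 UMIs (14 weeks), in 36 (40 weeks) and 2 (14 weeks) cells. Of 7 measured type 17 genes 4 were higher and 1 was lower, and their median log2 ratio was 2.21.

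These genes were found together in single cells. Of 8 gamma-delta and type 17 genes (Trdc, Tcrg-C1, Cd163l1, 5830411N06Rik, Blk, Il17a, Il23r and Sox13), a set and a limit chosen after the values were seen, at least 3 were found in 47 of 180 T and NK cells of WT glands at 40 weeks (26.1%, 19.9 to 33.2) and in 5 of 314 at 14 weeks (1.59%, 0.519 to 3.68). In p25OE glands 2 of 128 cells at 14 weeks had them (1.56%), and 0 of 30 at 40 weeks, which allows a share of up to 11.6% by the exact interval. Of the 10 of those 30 cells that did not meet the endocrine rule, 0 had them, which allows up to 30.8%. As a share of all kept cells they were 0.593% at 40 weeks and 0.076% at 14 weeks in WT glands. Without the endocrine-rule cells they were 40 of 156 T and NK cells at 40 weeks and 5 of 289 at 14 weeks. When each cell was thinned to 1000 UMIs they were 36 of 179 (20.1%) at 40 weeks and 1 of 311 (0.322%) at 14 weeks.

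Cd4 and Cd8a were found in 0 of the 47 cells. Trac, the alpha chain constant segment, was found in 5 of the 47 and in 64 of the other 133 T and NK cells of that library. Ccl5 was found in 1 of the 47 and 83 of the 133. Ramp1, part of the receptor for the sensory neuropeptide CGRP, was found in 45 of the 47 and 28 of the 133, and its level in all T and NK cells was 9.19-fold higher at 40 than at 14 weeks (6.82 to 12.5). Capg, an actin-capping protein, was found in 47 of the 47 and 35 of the 133, Cxcr6 in 45 and 77, and Serpinb1a, a protease inhibitor, in 27 and 6. Pdcd1, the inhibitory receptor PD-1, was found in 20 of the 47 and 6 of the 133. Ltb4r1, a receptor for leukotriene B4, was found in 25 and 9, and Actn2, an actinin, in 37 and 20. Capg, Pdcd1 and Actn2 were named after their values were seen. Receptor gamma variable genes were too rarely counted to tell clones apart: Tcrg-V6 was found in 1 of the 47 cells and Trgv2 in 1.

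Without the type 17 cells, which were chosen by these genes, the log2 ratios were 2.05 for Trdc and 1.9 for Tcrg-C1, and the median of the type 17 list was -0.06, as a description only. T and NK cells without them were 1.68% of kept cells at 40 weeks and 4.70% at 14 weeks in WT glands, 2.80-fold lower. Ptgds, a prostaglandin synthase of glia, was also among the highest ratios, but 61 of its 88 UMIs at 40 weeks were in 1 cell.

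NK, granule and transcription factor genes were on the lower side in the T and NK cells of WT glands at 40 weeks, where 36.9% of all measured genes were lower and 11.0% higher. These counts include the type 17 cells. Of 18 NK genes 14 were lower and 1 higher (median log2 ratio -1.15), of 13 granule genes 9 were lower and 0 higher (-1.18), and of 17 memory and effector transcription factors 11 were lower and 0 higher (-0.87). Klrc2, the activating receptor NKG2C, had 7 UMIs at 40 weeks and 171 at 14 weeks, 13.6 (40 weeks) and 123 (14 weeks) scaled CPM, 9.08-fold lower (4.31 to 22.9). Itga1 had 19 UMIs (40 weeks) and 279 UMIs (14 weeks), 5.46-fold lower, Fasl, the death ligand, 5.34-fold, and Gzmb, granzyme B, 3.74-fold. Among transcription factors Eomes was 4.37-fold and Tbx21 3.64-fold lower. By contrast Lat, the adaptor of T cell receptor signalling, was 2.16-fold higher.

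Several of the lowest ratios were shared with other classes of the same libraries. Hopx, a homeodomain-like regulator, had 5 UMIs at 40 weeks and 241 at 14 weeks, 17.9-fold lower (7.57 to 55.7), and it was 15.9-fold lower in macrophages and 10.1-fold in endocrine cells. Lars2, a mitochondrial tRNA ligase, was 17.7-fold lower in T and NK cells, 6.4-fold in macrophages and 6.38-fold in endocrine cells. Dock8, a guanine exchange factor needed for T cell migration, was 11.3-fold lower in T and NK cells, 6.71-fold in macrophages and 1.08-fold in endocrine cells. Ptprc had 95 UMIs (40 weeks) and 996 UMIs (14 weeks), 3.9-fold lower (3.15 to 4.86). In macrophages 3043 of 12817 genes (23.7%) were higher and 3057 (23.9%) lower, and in endocrine cells 2973 of 15784 (18.8%) were higher and 3023 (19.2%) lower. In each of these, age and the way the libraries were made cannot be told apart.

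**Figure D4:**
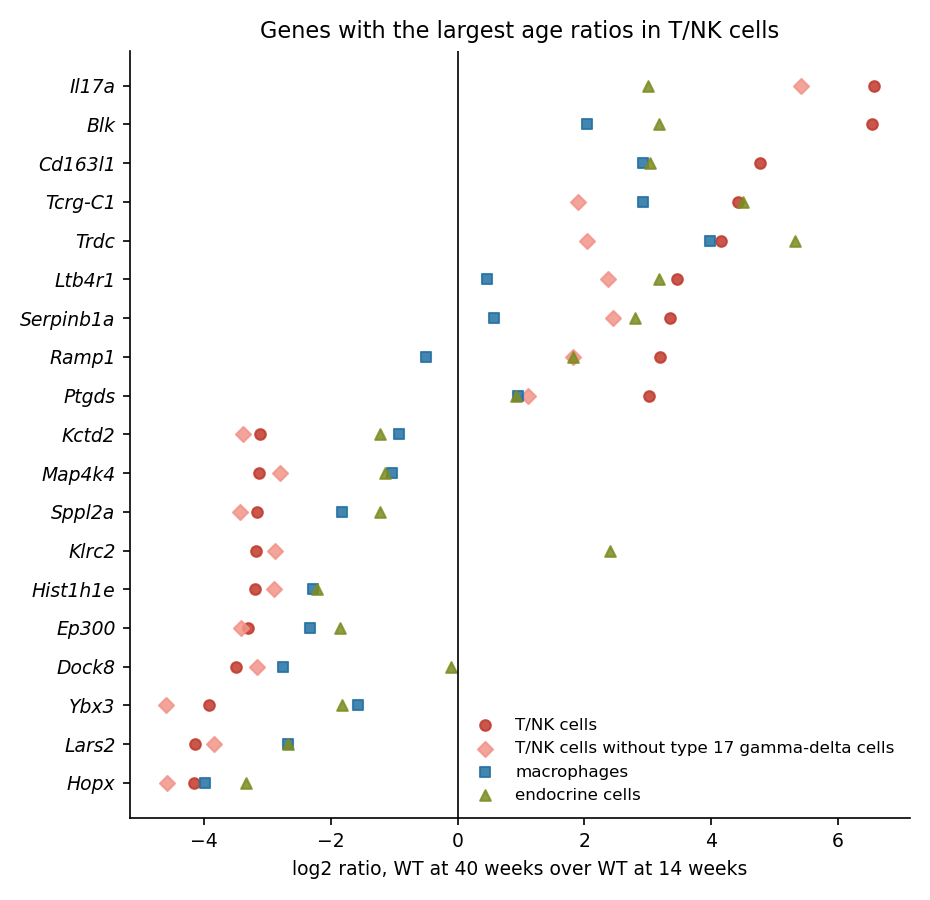
Log2 ratio of WT at 40 weeks over WT at 14 weeks (x axis) for 9 of the genes with the highest and the 10 with the lowest ratios in T and NK cells (y axis), for T and NK cells, the same without the type 17 gamma-delta cells, macrophages and endocrine cells. Values against 0 UMIs, as for Il17a and Hist1h1e in T and NK cells, are set against a floor of 3 UMIs; Hopx lies far left of 0 in all 4 series, and a missing point had too few UMIs.

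Of the interferon-stimulated genes 0 of 23 were higher at 40 weeks and 10 lower (median log2 ratio -0.49), not far from the 36.9% of all genes that were lower, and 17 of 22 were lower without the endocrine-rule cells (median -1.02), where 39.3% of all genes were. In macrophages 1 was higher and 20 lower of 28 (median -0.88), and in endocrine cells 17 of 27 were higher and 0 lower (median 0.78). Of 13 class I genes 1 was higher and 8 lower in T and NK cells (median -0.85), where 11.0% of all genes were higher and 36.9% lower. H2-T23, which encodes a ligand of NK receptors, was 7.06-fold lower, while B2m, the shared light chain, was 2.02-fold higher. Of 22 nuclear genes of oxidative phosphorylation 9 were higher and 0 lower (median 0.49), against the same shares of all genes, among them Cox6a1, which was 3.25-fold higher in T and NK cells, 4.11-fold in macrophages and 3.47-fold in endocrine cells.

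RNA of other cells was more common in the T and NK cells of WT glands at 40 than at 14 weeks. All 4 measured macrophage genes outside the rule were higher (median log2 ratio 3.66), as were all 3 neutrophil genes (6.05) and all 4 erythroid genes (7.56). The neutrophil gene S100a8 had 75 UMIs at 40 weeks and 0 at 14 weeks, and at 40 weeks it was found in 10.6% of T and NK cells, 17.7% of macrophages and 19.9% of endocrine cells. Trdc was also found outside T and NK cells at 40 weeks, but in 1.35% of macrophages and 1.11% of endocrine cells, against 28.3% of T and NK cells. At a depth of 1000 UMIs per cell it was found in 26.3% of T and NK cells, 0.129% of macrophages and 0.114% of endocrine cells of that library. The part of RNA from other cells in the differences with age was not tested.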

How the data were processed

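Single-cell RNA was measured in 4 pituitary libraries, 1 per genotype and age, and libraries were grouped by the labels. The deposited values are raw UMI counts per gene and barcode, whole numbers, per the file headers, with no normalization by the authors. Cell Ranger 3.0.2 and mm10 were used per the submitters' processing notes, while the file headers give 3.0.1. Library totals were 77275454 (p25OE) and 95242353 (WT) UMIs at 14 weeks and 60662506 (p25OE) and 53714895 (WT) at 40 weeks, and the members held 547268, 1427869, 283933 and 543817 of them in this order. Barcodes with fewer than 500 genes or over 20% mitochondrial UMIs were left out, which kept 7667, 6579, 7726 and 7927 cells.

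UMIs of the members were summed per library and divided by median-of-ratios size factors over the 2592 genes that reached 20 UMIs in all of 3 libraries, p25OE at 40 weeks being scaled by its total. Endocrine cells had at least 4 of 6 endocrine genes, and macrophages had C1q genes. B cells had Cd79a and Cd79b, and neutrophils had S100a8 and S100a9. Ratios carry exact conditional Poisson intervals and shares exact Clopper-Pearson intervals (scipy 1.17.1, numpy 2.4.6, pandas 2.3.3, Python 3.11.15). A ratio against 0 UMIs used a floor of 3 UMIs per library. In a simulation of the genotype comparison at 14 weeks over 6942 genes, 95.7% of the intervals held the true ratio. That checks how the intervals were computed. It does not show that they hold for these data, where the UMIs of some genes were mostly in 1 cell.

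Genes named were the 10 highest and 10 lowest ratios per comparison among genes with at least 50 UMIs, an interval wholly beyond 1.5-fold and a level in T and NK cells at or above that of other cells. That ranking left out gene models without a name and the haemoglobin, sex-linked, ribosomal and mitochondrial genes. Added were the 2 highest levels and the 2 highest and 2 lowest ratios of each gene list, and the 8 genes each way between subsets. Coro1a, Ms4a4b, Ptprc, Foxp3, Ncr1, Isg15, Ifit3, Irf7, Bst2, Actn2, Gm42418, Fkbp5, Tsc22d3, 5830411N06Rik, Il23r, Sox13, Tcrg-V6 and Trgv2 are named in addition, picked with their values in view. Values of some genes that the rule names, or that the lists hold, are not reported here. The members and lists were chosen with earlier results of these data known.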

Additional observations from a re-analysis of the deposited data

Results flagged for a closer look

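Over all cells taken by the rule, the T and NK share of the immune cells differed between the ages in how p25OE and WT glands compared. At 14 weeks the ratio of p25OE over WT was 0.391, with 10.7% of immune cells in p25OE and 27.4% in WT glands. At 40 weeks the ratio was 1.03 (0.674 to 1.52), with 9.38% in p25OE and 9.12% in WT glands. There 20 of the 30 p25OE cells also met the endocrine rule. Without the cells that met it, the ratio was 0.389 (0.312 to 0.483) at 14 weeks and 0.416 (0.196 to 0.787) at 40 weeks. The ratios were then alike at both ages. With 1 library per group the difference between the ages was not tested.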

How the results depend on the processing

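Libraries were single, so a spread between animals is unknown, and ratios of genes with few UMIs have wide intervals. No paired analysis was possible because each group is 1 library. The lower T and NK share in p25OE glands at 14 weeks, a ratio of 0.35, was 0.242 of all barcodes. The share of WT at 40 over 14 weeks, 0.476, was 0.365 from at least 300 genes on, 0.681 without the exclusion by C1qa and Cd79a and 0.333 of immune cells. The NK share of T and NK cells for WT at 40 over 14 weeks, 0.969, passed 1 with at least 300 genes (1.03), after thinning to 1000 UMIs (1.47) and without the type 17 cells (1.29). Of the alternatives, that without the type 17 cells and those within the CD8 or NK subset were chosen after seeing the data.

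For p25OE over WT, genes at least 1.5-fold higher and lower numbered 557 and 1271. They were 1138 and 2554 from at least 10 UMIs on, 137 and 271 from 100 on, 169 and 517 at 2-fold, 274 and 651 in CD8 cells and 122 and 111 in NK cells. The higher count was 980 with plain CPM, which shifts the median gene by 0.16 on the log2 scale, and 1195 with CD4, CD8 and NK cells weighted equally, and the lower count was 669 without the endocrine-rule cells. The interferon median of 0.84 was 0.17 in NK cells, and Hist1h1d turned to 0.56 in CD8 cells. For WT at 40 over 14 weeks, 744 higher and 2495 lower genes became 1303 and 3986 from 10 UMIs on, 332 and 744 from 100 on, and 248 and 1471 at 2-fold. The type 17 median of 2.21 was 4.43 from 100 UMIs on, 0.59 with equal weights and -0.06 without the type 17 cells. The type 17 share of T and NK cells for WT at 40 over 14 weeks, 16.4, was 62.5 after thinning to 1000 UMIs, with 1 cell left at 14 weeks. Of the named genes, 14 of 35 moved with equal weights, 8 of 17 without the type 17 cells, 4 of 7 in NK cells, 2 of 15 in CD8 cells and 2 to 4 of 35 under each other alternative. The causes were not tested except where fewer genes or cells were counted.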
